A study of Mus musculus with 48 samples.

Results

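The 10 genes described here serve the absorption of dietary fat and its export in lipoproteins, and were taken from the 55401 genes of the colon count table by symbol: Apoa1, Apoa4, Apob, Apoc3, Mttp, Dgat1, Dgat2, Mogat2, Scarb1 and Npc1l1. In an absorbing enterocyte, fatty acids and monoacylglycerol taken up from the lumen are rebuilt into triglyceride by the acyltransferases encoded by Mogat2, Dgat1 and Dgat2. The microsomal transfer protein encoded by Mttp loads this triglyceride onto apolipoprotein B, and the particle leaves the cell as a chylomicron that also carries the smaller apolipoproteins. These steps take place mainly in the small intestine, while the tissue measured here was colon, whose epithelium absorbs water, salts and short-chain fatty acids and meets little dietary fat.

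RNA of whole colon was measured in 48 male mice on a C57BL/6J background, 4 in each of 12 groups formed by genotype and circadian time (CT1, CT5, CT9, CT13, CT17 and CT21). Bmal1 IEC-/- mice carried floxed Bmal1 alleles and a Villin-driven Cre, which deletes this core clock gene in intestinal epithelium only. Their control littermates carried the same floxed alleles without Cre. All mice had free access to chow and were 18 to 20 weeks old when killed in the dark, on day 2 without a light cycle, so that CT1 to CT9 fell in the subjective day and CT13 to CT21 in the subjective night. The sampled colon held epithelium together with muscle, stroma and fat, so fewer cells of a type and less RNA per cell cannot be told apart. The question was whether transcripts of the fat absorption pathway followed a daily rhythm in the colon and whether that rhythm or their level depended on the epithelial clock.

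Total counts ran from 3144997 to 4785844 per mouse. Arntl, the symbol of the deleted Bmal1 gene, varied between 26.2 ± 8.74 normalized counts at CT9 and 258 ± 17.9 at CT1 in control colon (mean ± SD, n = 4), where a normalized count is a read count divided by the size factor of its mouse. In Bmal1 IEC-/- colon it was lowest at CT9, 113 ± 30.8, and highest at CT1, 138 ± 43.2. The CT1 replicates SV384 and SV385, with 105 and 97.2, lay below SV479 and SV480, with 171 and 180, and without the former the CT1 mean was 176. Arntl was not rhythmic in Bmal1 IEC-/- colon over 24 mice (adjusted p = 0.212 by the exact test of JTK_cycle, a rank test for a daily rhythm) and passed that test without those 2 mice (0.00568, or 0.0878 when also corrected over all genes), with a cosine amplitude of 21.3 normalized counts against 131 in control colon. The count covers the whole gene, deleted exons or not, and the non-epithelial cells kept the gene. Averaged over time the genotypes did not differ in it beyond the spread (log2 fold change 0.22, adjusted p = 0.458, where p from edgeR's quasi-likelihood F tests was adjusted by Benjamini and Hochberg's method). That average joins opposite differences. By the same test Arntl was higher in Bmal1 IEC-/- colon at CT9 (2.08, adjusted p = 1.90e-09) and CT13 (1.93, 7.70e-09). It was lower at CT21 (-0.86, 0.00457) and CT1 (-0.89, 0.000289). Without SV384 and SV385 the CT1 difference was -0.56 (adjusted p = 0.0966). CT5 and CT17 were not called. Among marker sums, the 7 epithelial genes led by Krt8 reached 18966 to 28511 normalized counts in control and 21989 to 39465 in Bmal1 IEC-/- colon, and the 6 colonocyte genes led by Car1 reached 35855 to 55644 and 36740 to 71295, so the defining markers of the labelled tissue were present. The CT1 mice SV384 and SV385, both Bmal1 IEC-/-, stood apart. Their colonocyte sums, 58695 and 71295, lay above the highest of the other 46 mice, 56751. The smooth muscle sum of SV385 was 3114 against 11262 to 19808 in those mice, and that of SV384 was 11614. With this pair the CT1 comparison of genotypes called 3616 genes (24.7% of those tested), and without it 183 (1.21%). The pair appears to have been left out of the study's own rhythm analysis, and results that depend on it are given with and without it.

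Expressed per kilobase of exon, the DGAT genes were the most abundant of the 10 in control colon. The median normalized count per kilobase over 24 control mice was 77.1 for Dgat2, 47.5 for Dgat1, 36.8 for Apob, 28.0 for Mogat2 and 13.2 for Scarb1. It was 2.20 for Npc1l1, 1.64 for Mttp and 1.57 for Apoa1. Neighbours in this order overlapped between mice except Scarb1, at 10.6 to 17.1 per kilobase, and Npc1l1, at 0.871 to 4.12. Apob was present at a level close to that of Dgat1, while Mttp, which encodes its lipid-loading partner, was scarce.

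**Figure D1:**
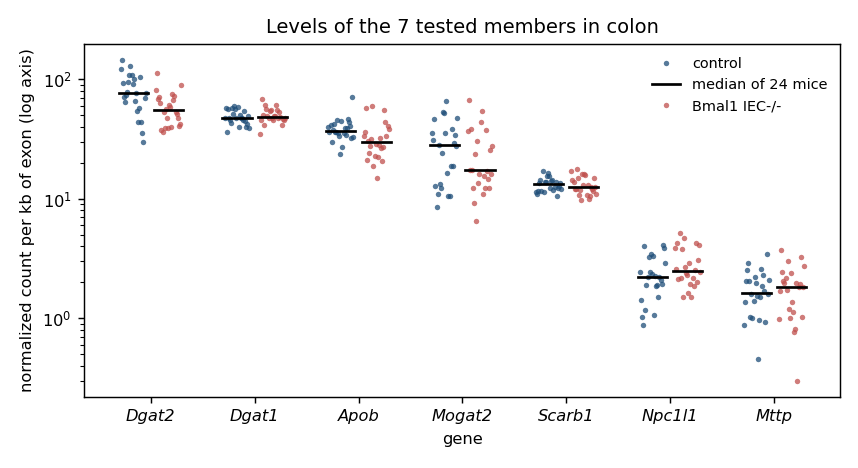
Normalized counts per kilobase of exon (log axis) of the 7 members that passed the filter on low counts, one point per mouse and a bar at the median of 24 mice per genotype. The 4 genes on the left had control medians between 28.0 and 77.1 per kilobase, and Npc1l1 and Mttp lay near 2.20 and 1.64.

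The small apolipoproteins were near or below detection. Apoa1, the main protein of high-density lipoprotein, had 128 counts over all 48 mice and 0 in 11 of them. Apoa4, a chylomicron protein, had 37 counts and was at 0 in 39 mice. Apoc3, which inhibits lipoprotein lipase, had 30 counts and was at 0 in 33 mice. A count of 0 allows up to 3 counts. The control CT1 replicates SV454 (10 counts) and SV469 (9) and the Bmal1 IEC-/- CT9 replicate SV400 (9) held most of the Apoa4 total, and the same mice had 19, 9 and 13 of the Apoa1 counts, against 15 in the Bmal1 IEC-/- CT13 replicate SV395. These 3 genes lie together on chromosome 9 (GRCm38), Apoa1 at chr9:46228580-46230466, Apoc3 at chr9:46232933-46235636 on the opposite strand and Apoa4 at chr9:46240696-46243459. Apoa4 has 1815 exon bases. Its overlaps with the opposite-strand genes Gm47528 and Gm10680 add up to 1266 bases, where a base shared with both counts for each. Whether the counting used strand is not given in the sources used here. None of the 3 passed the filter over 48 mice, which 7 of the 10 members did.

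Dgat2, one of the 2 enzymes that add the last fatty acid to triglyceride, had a daily pattern in control colon and the only genotype difference called over all 48 mice. It lies on chromosome 7 at chr7:99153658-99182719, 36364 bases from Mogat2 at chr7:99219084-99238619. At CT13 the 4 control mice had 335, 373, 395 and 448 normalized counts of Dgat2. The 4 Bmal1 IEC-/- mice at CT13 had 124, 209, 213 and 231. Every control mouse at this time lay above every Bmal1 IEC-/- mouse. The difference was a log2 fold change of -0.995 ± 0.23 (SE), or 1.99-fold lower, with an adjusted p of 0.00597 by edgeR's quasi-likelihood test. Without the pair it was -0.99 ± 0.19 with an adjusted p of 0.000815. Among all genes, 3.58% were called at CT13 over 48 mice and 4.43% over 46, and Dgat2 was the only member called there in either fit.

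At CT9 the control mice had 198, 219, 228 and 293 normalized counts of Dgat2 and the Bmal1 IEC-/- mice had 112, 116, 122 and 196. Again the groups did not overlap, although the highest Bmal1 IEC-/- mouse, SV400, came within reach of the lowest control. The log2 fold change was -0.77 ± 0.24, which missed the threshold over 48 mice (adjusted p = 0.123) and passed it over 46 (-0.78 ± 0.21, adjusted p = 0.0298, where 1.78% of genes were called, edgeR). At CT5, CT17 and CT21 the Dgat2 log2 fold change was -0.34, -0.47 and -0.48, none of them called in either fit. CT1 was the exception. The control mice had 92.0, 111, 136 and 217 normalized counts there, the replicates SV479 and SV480 had 125 and 131, and the pair had 250 and 348. The CT1 log2 fold change of Dgat2 was 0.62 ± 0.25 with the pair (adjusted p = 0.0611) and -0.12 ± 0.27 without it (adjusted p = 0.873), so its sign was set by the pair.

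**Figure D2:**
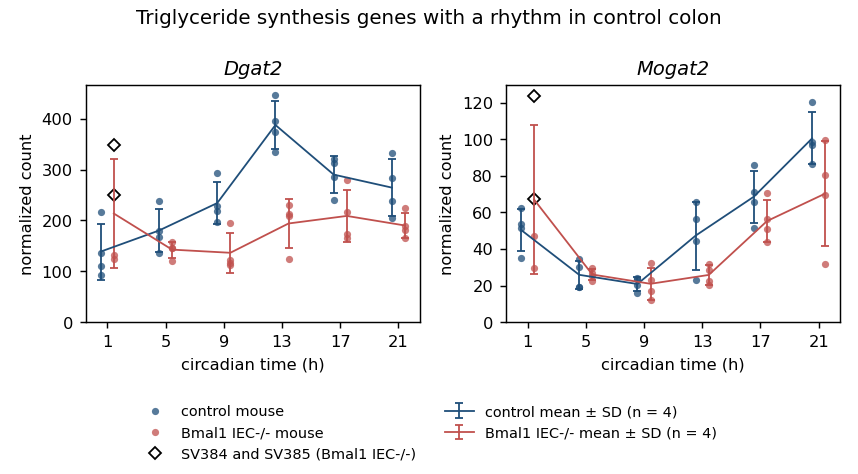
Normalized counts of Dgat2 and Mogat2 against circadian time (h), one point per mouse, with lines through group means and bars of 1 SD (n = 4); open diamonds are the pair SV384 and SV385, which the CT1 mean includes. Control Dgat2 rises to 388 at CT13 while Bmal1 IEC-/- Dgat2 reaches 194 there, and Mogat2 is highest at CT21 in both genotypes.

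Over the single mice of all 6 times, Dgat2 ran from 92.0 through a median of 238 to 448 normalized counts in 24 controls. In 24 Bmal1 IEC-/- mice it ran from 112 through 170 to 348. The ranges overlapped widely, since the control range contains the whole daily swing. Dgat2, averaged over the 6 times, fell in Bmal1 IEC-/- colon with a log2 fold change of -0.43 ± 0.12 and an adjusted p of 0.0112 (edgeR, all 48 mice). It was 1 of 7 tested members called, against 12% of all genes and 5.56% called lower. Without the pair the log2 fold change of Dgat2 was -0.57 ± 0.09 with an adjusted p of 6.34e-06, and Dgat2 and Mogat2 were called, both lower, against 10.5% of all genes and 5.72% called lower. Tested against a fold change of 1.5 over 48 mice, no member passed in edgeR, and none had an unadjusted p under 0.05. Over 48 mice the call was lost when CT13 (adjusted p = 0.125) or CT9 (adjusted p = 0.0786) was left out. Over the 46 mice it held without any single time, with log2 fold changes from -0.46 to -0.62, a check added after the data had been seen.

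Adipocytes also use Dgat2, and the 6 adipocyte markers led by Cfd summed to 34.2 to 1317 normalized counts in control and 22.3 to 747 in Bmal1 IEC-/- colon. The median over the list's log2 fold changes was -1.11, and 1 of 6 was called, Cidec, lower, against 5.56% of all genes called lower. At CT13 the controls SV396 and SV397 had the lowest control sums, 59.3 and 69.3, with 373 and 448 normalized counts of Dgat2. Both Dgat2 values lay above those of all 4 Bmal1 IEC-/- mice, whose sums were 27.6 to 335. Among these 4, SV448 had the lowest sum, 27.6, and the lowest Dgat2, 124. SV449 had the highest of both, 335 and 231. At CT17 SV481 had the highest sum, 747, and the highest Dgat2, 279, of the Bmal1 IEC-/- mice. At CT9 the control SV420 with the highest adipocyte sum, 735, also had the highest Dgat2, 293. Single mice went both ways. At CT9 SV418 had the highest Bmal1 IEC-/- sum, 278, with 122 of Dgat2, while SV400 had 70.5 with 196. Among CT17 controls SV398 had the lowest sum, 40.7, with 285 of Dgat2, above SV417 with 175 and 241. At CT21 the control SV434 had the highest sum, 1317, with 284, below SV433 with 625 and 333. The part of fat tissue in the Dgat2 difference, at single times or averaged over all of them, was not tested.

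Mogat2, the monoacylglycerol acyltransferase of the intestine that makes the diacylglycerol the DGAT enzymes use, had the largest fitted amplitude relative to its mean among the 7 tested members, 0.690 in control colon. In control colon its mean was 20.8 ± 3.82 normalized counts at CT9 and 100 ± 14.2 at CT21, a 4.82-fold range. In Bmal1 IEC-/- colon it was 20.9 ± 8.59 at CT9 and 70.3 ± 28.6 at CT21, a 3.35-fold range. The 4 control mice at CT21 had 86.5, 96.6, 98.4 and 120 normalized counts of Mogat2, and the Bmal1 IEC-/- mice had 31.6, 69.5, 80.3 and 99.6. The groups overlapped at CT21, where the log2 fold change of Mogat2 was -0.52 ± 0.28 and was not called (adjusted p = 0.760, edgeR). At CT13 the controls had 22.8, 44.2, 56.5 and 65.7 and the Bmal1 IEC-/- mice 20.02, 22.7, 28.5 and 32.0, a log2 fold change of -0.87 ± 0.32 with an adjusted p of 0.133 over 48 mice and 0.0656 over 46. Averaged over time, Mogat2 differed by -0.23 ± 0.14 with an adjusted p of 0.280, so no difference was called. Without the pair it fell by 0.38 ± 0.12 on the log2 scale with an adjusted p of 0.0295. That call was lost when CT1, CT13, CT17 or CT21 was also left out, and held without CT5 or CT9. This check was added after the data had been seen. In the pair itself Mogat2 was at 67.4 and 124 normalized counts against 47.2 and 29.6 in the other Bmal1 IEC-/- mice at CT1. Some 55 exon bases of Mogat2 are shared with the opposite-strand gene Gm45012.

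**Figure D3:**
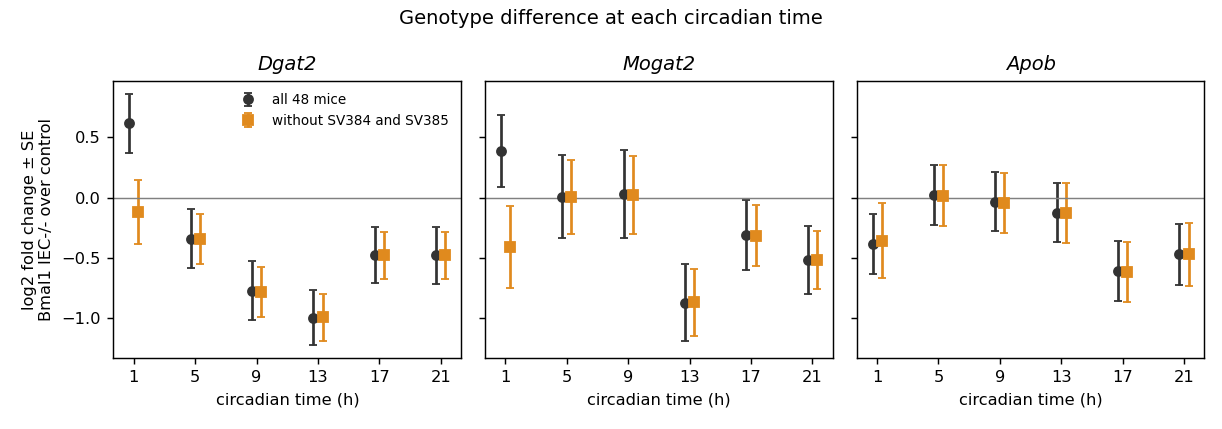
Log2 fold change of Bmal1 IEC-/- over control at each circadian time (h) for Dgat2, Mogat2 and Apob, with bars of 1 SE, over all 48 mice and without SV384 and SV385. Dgat2 is lowest at CT13, -0.995, and the estimates of the 2 fits part at CT1, where Dgat2 is 0.62 with the pair and -0.12 without it.

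In control colon 2 of the 10 members were rhythmic by JTK_cycle, a rank test for a 24-h rhythm with an exact null distribution, against 24.0% of the 32527 genes with at least 1 count. Dgat2 had an adjusted p of 1.40e-06 by the exact test, peaking at CT14, with a fitted cosine amplitude of 105 ± 15.6 normalized counts (SE) around a mean of 249. Mogat2 had an adjusted p of 2.63e-07 by the exact test, peaking at CT20, with an amplitude of 36.0 ± 4.22 around a mean of 52.2. By JTK_cycle, whose phases step by 2 h, the transcripts of these enzymes of successive steps peaked 6 h apart. The fitted cosines peaked at 14.5 h for Dgat2 and 19.8 h for Mogat2, and the highest means were at CT13 and CT21. With samples 4 h apart the gap is known only roughly. The other members had adjusted p from 0.0994 (Apoa1) to 1 in control colon.

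In Bmal1 IEC-/- colon 2 of 10 members were rhythmic over 24 mice, Mogat2 (adjusted p = 0.000260 by the exact test, peak CT21) and Dgat1 (0.00296 by the exact test, peak CT12), against 14.2% of genes. Over the 22 mice without the pair, 3 were rhythmic, Mogat2 (0.000148), Dgat1 (0.0261) and Dgat2 (0.0466, peak CT18, all by the exact test), against 14.2% of genes again. Each of these runs called 4605 genes, of which 3782 were called in both, so the equal share does not mean equal genes. Mogat2 kept an amplitude of 28.4 ± 5.87 normalized counts with the pair and 24.6 ± 4.22 without. The amplitude of Dgat2 in Bmal1 IEC-/- colon was 34.9 ± 15.9 with the pair (JTK_cycle exact adjusted p = 0.0583) and 40.4 ± 10.7 without. With a Benjamini-Hochberg correction over all genes in place of the study's threshold, Mogat2 alone passed in Bmal1 IEC-/- colon (q = 0.0144 over 24 mice).

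Whether the rhythm itself differed between genotypes was tested in edgeR by the interaction of genotype with a cosine and a sine of time. Over 48 mice 1 of 7 members was called, Dgat2 (adjusted p = 0.0361), against 1.92% of genes. The genotype difference of Dgat2 also varied over the 6 times when each was fitted freely (adjusted p = 0.0305), the 1 member called, against 3.98% of genes. Both calls depended on the pair. Over 46 mice the adjusted p of Dgat2 was 0.337 for the change of rhythm and 0.595 for the free fit. No member was called in the free fit over 46 mice by edgeR, where 0.504% of genes were and 1 member, Apoa1, had an unadjusted p under 0.05. The change of rhythm called none of the 7 members tested in both fits over 46 mice by edgeR, against 0.935% of genes, with Dgat2 at an unadjusted p under 0.05. Apoa1 and Apoa4 entered the 46-mouse fit because the smallest group then held 2 mice, and passed there at adjusted p of 0.0419 and 0.0394. They entered it through the few mice with counts named above, so these values are no result about the genes. Mogat2 was not called in either fit, with an adjusted p of 0.308 and 0.776 for the change of rhythm. Leaving out 1 mouse also ended the Dgat2 calls. The free-time call was lost without SV384, SV385 or one of the CT1 controls SV454, SV455 and SV468 (adjusted p 0.0729 to 0.190). The change of rhythm was lost without any of these or without SV396, SV397 or SV424 of the CT13 controls or SV448 of the CT13 Bmal1 IEC-/- mice (adjusted p 0.0573 to 0.121).

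Set as night minus day, Dgat2 rose by 0.76 ± 0.16 and Mogat2 by 1.16 ± 0.28 on the log2 scale in control colon (adjusted p = 0.000155 and 0.00110, edgeR), the 2 members called of 7, against 35.8% of genes. In Bmal1 IEC-/- colon no member was called by edgeR over 48 mice, against 11.5% of genes, although 3 members (Scarb1, Npc1l1 and Apob) had an unadjusted p under 0.05. Without the pair, whose CT1 mice count as day, Dgat2 rose at night by 0.53 ± 0.15 (adjusted p = 0.0118) and Mogat2 by 0.91 ± 0.26 (0.0152) in Bmal1 IEC-/- colon, against 14.8% of genes. Apoa4 also passed there (adjusted p = 0.0462), but it was at 0 in every Bmal1 IEC-/- mouse of the night and its day counts came from 4 mice, so no change is read from it. The night minus day difference itself did not differ between genotypes for any member by edgeR, against 0.137% of genes over 48 mice and 0.0531% over 46. At an unadjusted p under 0.05 these were 2 members (Scarb1 and Dgat2) over 48 mice and 1 (Scarb1) over 46.

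Dgat1 encodes the other DGAT enzyme, and no genotype difference was called for it. Its 24 control mice ran from 110 through 145 to 184 normalized counts and its 24 Bmal1 IEC-/- mice from 107 through 149 to 208. The log2 fold change was 0.05 ± 0.05 with an adjusted p of 0.615 (edgeR), and its 95% interval from -0.05 to 0.15 does not reach the change seen for Dgat2. Dgat1 was highest at CT13 in both genotypes, at 165 ± 17.9 in control and 179 ± 24.1 in Bmal1 IEC-/- colon, and its rhythm did not differ between them beyond the spread (adjusted p = 0.905).

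Apob, the scaffold protein of chylomicrons, had the most counts of the 10, 170 to 996 per mouse. It ran from 332 through 512 to 994 normalized counts in control mice and from 207 through 413 to 831 in Bmal1 IEC-/- mice. The log2 fold change was -0.27 ± 0.10, which did not pass the threshold over 48 mice (adjusted p = 0.0809, edgeR) or over 46 (0.118). At CT17 the controls had 503, 575, 622 and 652 normalized counts of Apob and the Bmal1 IEC-/- mice 262, 296, 440 and 539. The groups overlapped there, and the log2 fold change of -0.61 ± 0.25 was not called (adjusted p = 0.492). At CT9 and CT13 the Bmal1 IEC-/- mice SV418 and SV395 reached 831 and 796, and at CT5 SV477 and SV478 reached 768 and 613, each above every control of the same time. Leaving out SV477, SV418 or SV395 brought the Apob genotype difference past the threshold, with an adjusted p as low as 0.0189 (edgeR). These were the only 3 of 48 single removals that did so. Without the control SV469, at 994 the highest mouse, the log2 fold change shrank to -0.22 (adjusted p = 0.154, edgeR). Apob showed no rhythm by JTK_cycle in either genotype (exact adjusted p = 1 in control and 0.309 in Bmal1 IEC-/- colon).

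Mttp, at 1.85 to 23.2 normalized counts per mouse, did not differ by genotype (log2 fold change 0.05, 95% interval -0.31 to 0.40, adjusted p = 0.905, edgeR). It has 6206 exon bases, and its overlaps with the opposite-strand genes Gm43691 and Trmt10a, added gene by gene, come to 589 bases. Npc1l1, the cholesterol importer of the brush border, was higher by 0.28 ± 0.16 on the log2 scale, which was not called (adjusted p = 0.266). Its largest single difference was at CT9, 0.93 ± 0.38, where the controls had a mean of 9.22 ± 6.30 normalized counts and the Bmal1 IEC-/- mice 17.6 ± 5.84 (adjusted p = 0.363). Scarb1, which encodes the receptor for high-density lipoprotein, differed by -0.02 ± 0.06 over all times (adjusted p = 0.903). At CT17 Scarb1 was at 123 ± 19.7 in control and 92.9 ± 7.70 in Bmal1 IEC-/- colon, a log2 fold change of -0.41 ± 0.15 that was not called (adjusted p = 0.327).

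**Figure D4:**
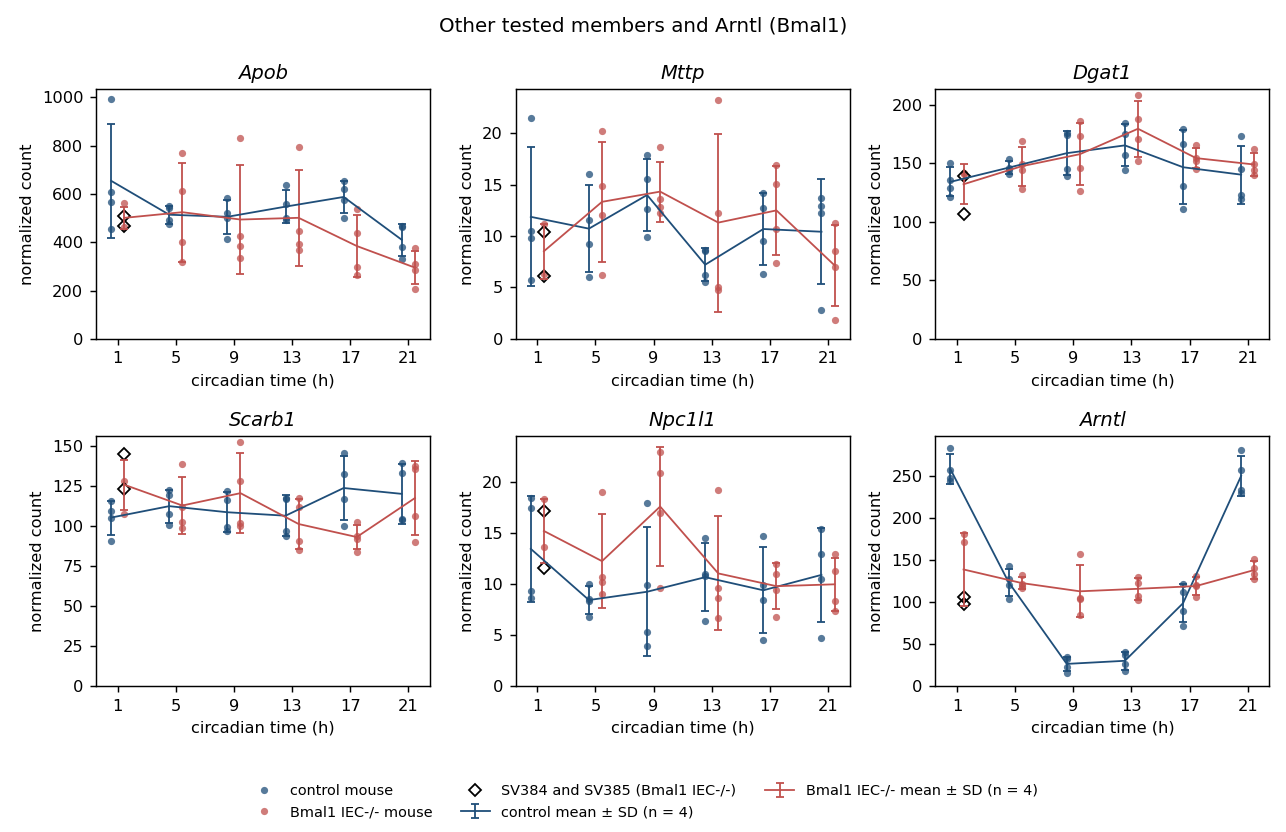
Normalized counts of Apob, Mttp, Dgat1, Scarb1, Npc1l1 and Arntl against circadian time (h), drawn as for Dgat2 and Mogat2, with means, bars of 1 SD (n = 4) and open diamonds for SV384 and SV385. Arntl swings between 26.2 and 258 in control colon and between 113 and 138 in Bmal1 IEC-/- colon, or 176 at its highest without the pair, whereas the 5 members shown overlap between genotypes at most times.

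**Figure D5:**
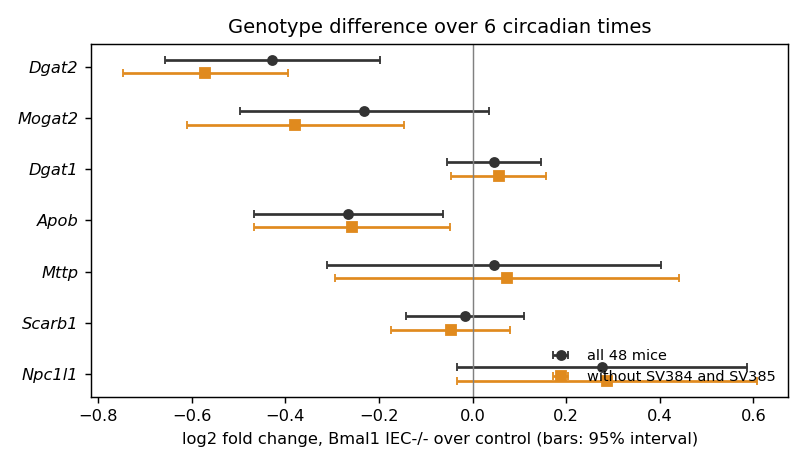
Log2 fold change of Bmal1 IEC-/- over control across the 6 circadian times for the 7 tested members, with 95% intervals, over all 48 mice (circles) and without SV384 and SV385 (squares). The Dgat2 interval lies below 0 in both fits, at -0.43 and -0.57, that of Mogat2 lies below 0 without the pair only, and that of Apob, at -0.27 and -0.26, also lies below 0 in both fits, though Apob did not pass the adjusted threshold.

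The wider pathway was read from 7 lists holding 92 genes in all. Over 48 mice 76 of them were tested and 19 called, 12 lower and 7 higher, against 12% of all genes called and 5.56% called lower. Over 46 mice 77 were tested and 19 called, against 10.5% of all genes. The median log2 fold change over all 14618 genes was near 0. In fatty acid uptake and activation, 4 of 11 tested genes fell and 1 rose, with a median of -0.15. Acsl3, an acyl-CoA synthetase, fell by 0.45 ± 0.06 on the log2 scale (adjusted p = 1.11e-07), and Dbi, the acyl-CoA binding protein, rose by 0.26 ± 0.04 (4.32e-06, edgeR). In glycerolipid synthesis, the steps that feed Dgat2 by the glycerol phosphate route, 2 of 11 fell and 2 rose, with a median of -0.09. Lpin1, a phosphatidate phosphatase, fell by 0.42 ± 0.11 (adjusted p = 0.00546), and Agpat4, an acyltransferase of the same route, rose by 0.28 ± 0.06 (0.00130, edgeR). In lipoprotein assembly and export 1 of 9 rose, Surf4, a cargo receptor of the endoplasmic reticulum, by 0.10 ± 0.03 (adjusted p = 0.0416 over 48 mice, 0.154 over 46), and the median was 0.02. Of the other apolipoproteins 3 of 10 could be tested, and none was called.

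In sterol transport and esterification 2 of 14 fell, among them Soat1, which esterifies cholesterol, by 0.17 ± 0.05 (adjusted p = 0.0138), with a median of -0.12. Of the lipid droplet and lipolysis genes 2 of 12 fell, among them Lipe, the hormone-sensitive lipase, by 0.37 ± 0.10 (adjusted p = 0.00695), with a median of -0.12. Lipe and the other gene called, Plin4, are used by adipocytes, whose marker sums are given above. Plin4 was called over 48 mice (adjusted p = 0.0430) and not over 46 (0.0824), where Plin2 was called in its place (8.50e-05). The part of fat tissue was not tested. Of the transcription factors 3 of 16 rose and 2 fell, with a median of 0.02. Ppara, a receptor for fatty acids, fell by 0.25 ± 0.08 (adjusted p = 0.0458, edgeR).

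The genes whose log2 CPM (read counts scaled to a common library size) ranked mice most like a member are given as description, with Spearman's rho over 48 mice that share time of day and tissue makeup. Mogat2 was most like Calr, a chaperone of the endoplasmic reticulum (rho 0.92, and 0.91 without the pair). Dgat2 was most like Ppp1r1b (0.84 and 0.83). The closest gene was Ptprd for Apob (0.72), Prpf6 for Dgat1 (0.71), Hsh2d for Mttp (0.64), Smarcd1 for Scarb1 (0.57) and Ces2e for Npc1l1 (0.51), and for Apob, Dgat1, Scarb1 and Npc1l1 another gene came first without the pair.

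Of the other marker lists, small intestine enterocytes (9 genes led by Fabp2) had 1 gene higher and 1 lower of 7 tested. The higher one was Alpi, with a log2 fold change of 0.70 ± 0.13. The lower one was Sis, sucrase-isomaltase, with a log2 fold change of -2.90 ± 0.13. The median of the list was -0.03. Colonocyte markers had 2 lower of 6 tested and epithelial markers 4 higher of 7. Paneth cells (led by Lyz1) had 1 higher of 2 tested and fibroblasts (Dcn) 1 lower of 4. Over all 14618 genes tested, 935 were called higher and 813 lower. None was called among smooth muscle (Myh11, 5 tested), macrophages (Csf1r, 5), T cells (Cd3g, 2) or B cells (Cd79a, 1) over 48 mice. The same held for erythrocytes (Hbb-bs, 3 tested), pancreas (Cela1, 1) and liver (Ttr, 2). With 1 or 2 genes tested, a list says little about its cell type. Without the pair, epithelial markers had 2 higher and 1 lower of 7, and smooth muscle had 1 lower of 5. Among all 15073 genes tested there, 728 were called higher and 862 lower.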

How the data were processed

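The authors aligned colon reads of a stranded mRNA library to mm10 with STAR 2.7.5c and counted exonic reads of mapping quality 4 or more with featureCounts 1.4.6. The deposited values are the authors' raw read counts per gene, whole numbers with no normalization, in 1 table for 48 mice. Symbols and positions came from GENCODE release 21 for GRCm38, which matched 55141 of 55401 genes. A count of 0 allows up to 3 counts, for counting error only, and no batch is labelled. Totals of 3144997 to 4785844 counts per mouse limit what the lowest genes can show.

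Genes kept by filterByExpr (14618 over 48 mice, 15073 over 46) were fitted in edgeR 4.0.16 (R 4.3.3) with TMM normalization and quasi-likelihood tests, Benjamini-Hochberg adjusted over all of them, with a threshold of 0.05. Models held genotype and time, their interaction, genotype at each time, day against night, and genotype with cosine and sine. SE is the log2 fold change over the root of F. Normalized counts used DESeq2 1.42.0 size factors. JTK_cycle was run on them (24 h, 12 phases) in Python 3.11.15, with its p corrected over phases only. Scripts were tested on simulated data. Replicates are separate mice.

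The members and lists were chosen with earlier results of these data known. Named beside the members are Arntl, the called gene of smallest p in each direction per list, and the gene most like each member. One gene that this rule names is not reported here. Genes called in numbers of 5 or fewer that fall outside this rule (Alpi, Cidec, Plin2, Plin4, Sis) and the marker genes' directions were named after their values were seen. Alternatives were DESeq2, other normalization, no filter, a fold threshold, and leaving out mice, times or the pair SV384 and SV385.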

Additional observations from a re-analysis of the deposited data

Results flagged for a closer look

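In 3 of 84 groups of 4 mice examined over the 7 tested members, 1 mouse lay far from the others, where chance gives about 1 group in 20. Mttp in the control CT21 replicate SV441 was at 2.84 normalized counts, the next mouse being at 12.2. Dgat1 in the Bmal1 IEC-/- CT1 replicate SV384 was at 107, with 139 next. Dgat2 in the Bmal1 IEC-/- CT9 replicate SV400 was at 196, with 122 next, and this mouse also held 9 of the 37 Apoa4 counts.

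The genotype difference of Dgat2 varied over circadian time in edgeR's quasi-likelihood test, freely by time (adjusted p = 0.0305) and by cosine and sine (adjusted p = 0.0361), in both cases over 48 mice only.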

How the results depend on the processing

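The genotype call of Dgat2 held without each of the 48 mice in turn (log2 fold change -0.50 to -0.39), with DESeq2, with other size factors, without the time term and without the filter. The count of members changed with genotype, 1, became 2 without the pair SV384 and SV385, without CT5 or without the filter, 0 without CT9, without CT13 or against a fold change of 1.5, and 2 when the pair was left out together with CT5 or CT9. It ranged from 1 to 2 without single mice. The count of members whose genotype difference varied over time, 1, became 0 without the pair, and ranged from 0 to 1 without single mice. It became 6 without the filter, and these included Apoa1, Apoa4 and Apoc3, which were near or below detection. The count with a changed rhythm, 1, became 2 without the pair, where Dgat2 was lost and Apoa1 and Apoa4 were called. It became 3 without the filter, with Apoa1, Apoa4 and Dgat2, and ranged from 0 to 2 without single mice. Apoa1 and Apoa4 were near or below detection, so no changed rhythm is read for them. Calls at single times, 1, became 2 without the pair, both for Dgat2, and 10 without the filter. The share of all genes called without the filter was not computed, so the counts without the filter are no result about the members. The rhythmic members in Bmal1 IEC-/- colon, 2, became 3 without the pair and 1 with a correction over all genes. With single mice left out, the exact test of JTK_cycle called Dgat2 there in 6 of 24 runs (adjusted p 0.0234 to 0.170). In control colon it called Apoa1 in 2 and Dgat1 in 1 of 24 such runs. The cause of these changes was not tested. Pathway calls, 19, ran from 16 to 21. Signs turned for Dgat2 at CT1 (-0.12) and Mogat2 at CT1 (-0.41) without the pair, Mttp by genotype without CT13 (-0.072, and -0.034 with the pair left out too) or CT5 (-0.0080), and Scarb1 without CT17 (0.064, and 0.038 with the pair left out too). Without single mice Mttp ran from -0.056 to 0.125 and Scarb1 from -0.043 to 0.0082. No paired analysis was possible because each replicate number belongs to 1 mouse. Over 48 mice the 3 small apolipoproteins were too low to pass the filter.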
